A study of Arabidopsis thaliana with 11 samples.

Results

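The genes described here are 46 Arabidopsis thaliana loci that encode enzymes breaking down branched-chain amino acids, lysine, proline, glutamate, threonine, methionine and tyrosine, or that are known as dark-inducible and sugar starvation genes. They were chosen as a list of locus identifiers, by known function and with earlier results of these data known, and all 46 were found among the 33602 loci of the deposited table. Poly-A RNA of whole seedlings, 4 days old and grown in light, was sequenced in 11 libraries. iSPCH seedlings carry ESTpro:SPCH1-4A-YFP, in which estradiol drives a YFP fusion of a variant of SPEECHLESS (SPCH), the transcription factor that starts the stomatal lineage, and were compared with Columbia wild type (WT), which has no construct. Both lines were sampled untreated (0 h) and after 6 h or 8 h of incubation in 10 µM estradiol, so the treated WT seedlings received the inducer too. There were 2 libraries in each group except untreated WT, which had 1. No growth medium, light regime or hour of harvest is stated in the sources used here, nor is the number of independent iSPCH lines.

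When sugar runs short, in darkness or starvation, plant cells turn to protein and amino acids as respiratory fuel. Branched-chain amino acids and lysine are then broken down in mitochondria, and the electrons pass through the electron transfer flavoprotein and its oxidoreductase to ubiquinone. The kinase SnRK1 and small bZIP transcription factors of the S1 group, among them bZIP1 and bZIP53, are known to switch on part of this programme, including the asparagine synthetase gene ASN1 and the proline dehydrogenase gene ProDH1.

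The deposited values are group means of normalised read counts, from which the whole reads of each library could be recovered for 33488 loci. These loci held 11085246 to 21508526 reads per library. In each group with 2 libraries the deeper one is named A and the shallower one B. SPCH marked the lines as labelled, with 37224 and 37521 normalised counts in iSPCH against 103 and 130 in WT at 6 h. Changes are log2 fold changes of normalised counts plus 1, with their standard error (SE). Each was tested with limma among 19674 genes, and the threshold is a false discovery rate (FDR) of 0.05 on p values adjusted by Benjamini-Hochberg. Nothing in the labels ties the libraries of a group to separate cultures, so this spread may be technical. Of the 46 members, 40 were tested in this way. The other 6, ProDH1, GDH2, STP1, SEN1, DIN10 and ASN1, are so abundant that several whole-read pairs give the same mean, and they are given as ranges over all pairs within 2-fold.

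Nearly every member changed between 0 h and the treated hours, and did so in both lines. The 46 together held 0.191%, 2.60% and 2.93% of all normalised counts in iSPCH at 0 h, 6 h and 8 h, and 0.165%, 2.21% and 2.78% in WT. In iSPCH, 36 of the 40 tested members rose and 2 fell at 6 h, where 33.1% of all tested genes were called higher and 31.9% lower. At 8 h iSPCH had 35 higher and 2 lower, beside 34.8% and 33.6% of all genes. WT had 35 higher and 2 lower at 6 h, beside 29.2% and 27.9% of all genes. At 8 h WT had 36 higher and 2 lower, beside 31.2% and 29.9%. The median member change was 2.25 and 2.27 in iSPCH at 6 h and 8 h and 2.11 and 2.52 in WT, while the median over all tested genes was 0.02 and 0.02 in iSPCH and 0.00 and 0.00 in WT. The 6 abundant members were called higher in all 4 of these comparisons in every combination tried. The comparisons within a line share its 0 h libraries, and the lone untreated WT library was given the spread of the other groups.

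Estradiol, the incubation and the hours that passed cannot be told apart in these comparisons, since no seedlings were incubated without estradiol. Clock genes moved as well. LHY, a morning regulator of the circadian clock, had group means of 5751, 1177 and 441 normalised counts in iSPCH at 0 h, 6 h and 8 h, and of 5638, 1183 and 681 in WT. GI, a clock component of the later day, had 493, 2031 and 2518 in iSPCH and 367, 1951 and 2286 in WT. The part of time of day in the members' changes was not tested.

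**Figure D1:**
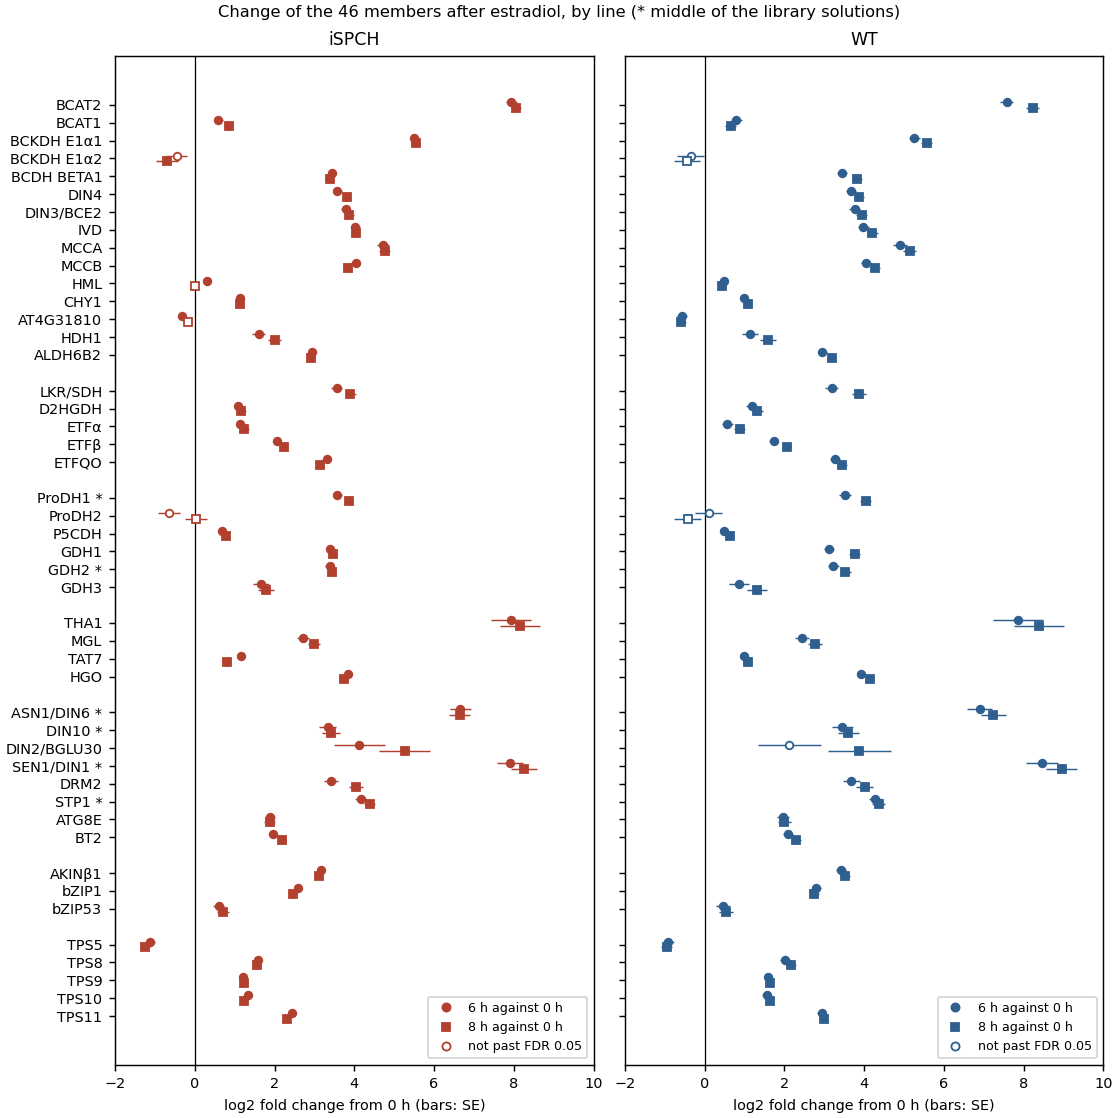
Log2 fold change from 0 h (x axis) of all 46 members (rows, grouped by role), in iSPCH (left) and WT (right), at 6 h (circles) and 8 h (squares). Bars are SE, open symbols are not past FDR 0.05, and an asterisk marks the 6 abundant members, shown at the middle of their range with the largest SE. Most symbols lie right of 0 in both lines, with THA1, BCAT2 and SEN1 near 8, and TPS5 lies left of 0.

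Enzymes of branched-chain amino acid breakdown formed the largest group, and 13 of its 15 members rose while 1 fell in WT at both hours and in iSPCH at 6 h. At 8 h in iSPCH 12 rose and 1 fell. BCAT2 (AT1G10070, chromosome 1, 3288087 to 3290471 in TAIR10.1, plus strand) encodes a branched-chain aminotransferase that takes the first step. It had 69.6 and 83.6 normalised counts in iSPCH at 0 h, 17308 and 20774 at 6 h, and 20230.5 and 20824 at 8 h. WT held 62.4 at 0 h, 13063 and 11172 at 6 h, and 21215 and 16979.9 at 8 h. Every treated library was far above every untreated one. The change was 7.94 ± 0.13 in iSPCH at 6 h (adjusted p = 2.11e-13) and 8.05 ± 0.13 at 8 h, and 7.57 ± 0.16 and 8.23 ± 0.16 in WT. Among the 19674 tested genes BCAT2 ranked 2 by its change at 8 h in iSPCH and also 2 in WT. BCAT1 (AT1G10060) is the neighbouring gene for another branched-chain aminotransferase. It held 253 and 212 in iSPCH at 0 h, 368 and 329 at 6 h, and 412 and 422 at 8 h. Its WT values were 240.3 at 0 h, 432 and 407 at 6 h, and 408 and 355 at 8 h. BCAT1 also rose in both lines, by 0.59 to 0.85. Per kilobase of exon BCAT1 was the more abundant of the pair at 0 h (means of 88.9 against 43.7 for BCAT2 in iSPCH, and 92.0 against 35.6 in WT). At 8 h BCAT2 had means of 11716 in iSPCH and 10900.3 in WT on that scale, against 159.6 and 146 for BCAT1.

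The next step, the branched-chain keto acid dehydrogenase, has several subunits, and a pair of genes for its E1α subunit diverged. BCKDH E1α1 (AT1G21400) held 286 and 371 normalised counts in iSPCH at 0 h, 13974 and 15715 at 6 h, and 15450.3 and 14984 at 8 h. WT held 290.4 at 0 h, 11536 and 10798 at 6 h, and 14852 and 12936 at 8 h. The treated libraries stood apart from the untreated ones, with a change of 5.50 ± 0.11 and 5.54 ± 0.11 in iSPCH at 6 h and 8 h and of 5.26 ± 0.14 and 5.57 ± 0.14 in WT. A stretch of 147 bases of this gene is 96.6% identical to AT5G34780, so a small part of its reads is uncertain. BCKDH E1α2 (AT5G09300) lay between 31.9 and 77.3 in every library. Its change was -0.69 ± 0.27 in iSPCH at 8 h (adjusted p = 0.0352), a call that was lost in 6 of 20 alternatives, and it was not past the threshold in the other 3 comparisons with 0 h. The E1β genes BCDH BETA1 (AT1G55510) and DIN4 (AT3G13450) and the E2 gene DIN3 (AT3G06850), by contrast, rose by 3.39 to 3.95 in every one of the 4 comparisons.

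The leucine branch followed. MCCA (AT1G03090), for the alpha subunit of methylcrotonyl-CoA carboxylase, held 724 and 953 in iSPCH at 0 h, 20853 and 22961 at 6 h, and 22319 and 22692 at 8 h. The WT libraries held 695 at 0 h, 22687 and 19232 at 6 h, and 27789.9 and 21745 at 8 h. MCCA was thus higher in all treated libraries, by 4.76 ± 0.14 in iSPCH (adjusted p = 5.47e-11) and 5.14 ± 0.17 in WT (adjusted p = 3.98e-10) at 8 h. IVD (AT3G45300), isovaleryl-CoA dehydrogenase, which feeds the electron transfer flavoprotein, held 548 and 623 in iSPCH at 0 h, 8868 and 10139.9 at 6 h, and 9552 and 9694 at 8 h. In WT it held 519.9 at 0 h, 8833 and 7616 at 6 h, and 10700.3 and 8619.7 at 8 h. Its rise was 4.02 ± 0.11 in iSPCH and 3.98 ± 0.14 in WT at 6 h. MCCB (AT4G34030), the beta subunit gene of the carboxylase, rose by 4.03 ± 0.11 and 4.04 ± 0.13 at that hour.

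HML (AT2G26800), hydroxymethylglutaryl-CoA lyase at the end of the leucine pathway, moved little. It held 953 and 989.7 in iSPCH at 0 h, 1222 and 1176 at 6 h, and 995 and 963 at 8 h. WT held 930.4 at 0 h, 1275 and 1338 at 6 h, and 1240.3 and 1282 at 8 h. In iSPCH the gene was higher by 0.30 ± 0.07 at 6 h (adjusted p = 0.00237) and had 0.01 ± 0.07 at 8 h (adjusted p = 0.902), whereas WT had 0.49 ± 0.09 and 0.44 ± 0.09, both past the threshold. The 8 h libraries of iSPCH overlap with its 0 h libraries, and those of WT do not overlap with the WT 0 h library.

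Of the valine branch, CHY1 (AT5G65940), a peroxisomal hydroxyisobutyryl-CoA hydrolase, HDH1 (AT4G20930), a hydroxyisobutyrate dehydrogenase, and ALDH6B2 (AT2G14170), methylmalonate semialdehyde dehydrogenase, rose in all 4 comparisons. At 8 h they had 1.12 ± 0.08, 2.01 ± 0.17 and 2.92 ± 0.10 in iSPCH, and 1.10 ± 0.10, 1.59 ± 0.20 and 3.19 ± 0.12 in WT. AT4G31810, a relative of CHY1, fell in WT by 0.56 ± 0.13 at 6 h and by 0.58 ± 0.13 at 8 h, and in iSPCH had -0.32 ± 0.11 at 6 h (adjusted p = 0.0170). The iSPCH call was lost in 4 of 21 alternatives, among them library size scaling, where the value was -0.19 (adjusted p = 0.141), DESeq2 (0.0806) and leaving out iSPCH 0 h A (0.102) or iSPCH 6 h A (0.107). At 8 h iSPCH had -0.17 ± 0.11 (adjusted p = 0.167). This gene overlaps AT4G31805 (POLAR), a stomatal lineage gene on the opposite strand that was higher in iSPCH by 3.95 ± 0.16 at 8 h. Strand is not stated for these libraries, so reads of the pair cannot be told apart. In all, 22 of the 46 members overlap a gene on the opposite strand, BCAT2, THA1 and ASN1 among them.

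Lysine breakdown and the electron transfer path rose throughout, with 5 of 5 members called higher in each of the 4 comparisons. LKR/SDH (AT4G33150; chromosome 4, 15985174 to 15991633, minus strand), the bifunctional enzyme that opens the lysine pathway, held 783 and 852 in iSPCH at 0 h, 8514 and 10924 at 6 h, and 11624 and 12844 at 8 h. WT held 684 at 0 h, 6631 and 5868 at 6 h, and 11445 and 8722 at 8 h. All treated libraries were far above the untreated ones, and the rise at 8 h was 3.90 ± 0.14 in iSPCH and 3.87 ± 0.17 in WT. ETFβ (AT5G43430), a subunit of the electron transfer flavoprotein, held 191 and 207 in iSPCH at 0 h, 792 and 885 at 6 h, and 909 and 969 at 8 h. In WT the same gene held 194 at 0 h, 662 and 635 at 6 h, and 869 and 757 at 8 h. It rose by 2.23 ± 0.10 in iSPCH and 2.06 ± 0.12 in WT at 8 h. Its partner ETFα (AT1G50940) rose less, by 1.24 ± 0.11 in iSPCH and 0.89 ± 0.14 in WT. ETFQO (AT2G43400), the oxidoreductase that takes the electrons to ubiquinone, rose by 3.14 ± 0.11 and 3.45 ± 0.13. D2HGDH (AT4G36400), a hydroxyglutarate dehydrogenase that also gives electrons to the flavoprotein, rose by 1.17 ± 0.12 and 1.33 ± 0.14.

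Among proline and glutamate enzymes the abundant isoenzymes rose more than the rare ones. ProDH1 (AT3G30775), a mitochondrial proline dehydrogenase, held 2658 and 3210.1 normalised counts in iSPCH at 0 h, 33761 and 35788 at 6 h, and 42852 and 41814 at 8 h. WT held 2743 at 0 h, and the only WT pairs within 2-fold were 33841 and 29467 at 6 h and 50961 and 39873 at 8 h. The rise was 3.86 ± 0.12 in iSPCH (adjusted p = 2.37e-12) and 4.04 ± 0.15 in WT (adjusted p = 2.18e-11) at 8 h. ProDH2 (AT5G38710), its paralogue, held 57.2 and 50.6 in iSPCH at 0 h, 30.7 and 37.8 at 6 h, and 69.0 and 43.8 at 8 h, and in WT 45.4, then 57.8 and 41.3, then 40.2 and 28.3. It was past the threshold in none of the 4 comparisons in limma. The nearest was iSPCH at 6 h with -0.64 ± 0.28 (adjusted p = 0.0529), which edgeR called (adjusted p = 0.0424). P5CDH (AT5G62530), the next enzyme of the path, rose by 0.78 ± 0.08 in iSPCH and 0.65 ± 0.10 in WT at 8 h.

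GDH1 (AT5G18170), the β subunit gene of mitochondrial glutamate dehydrogenase, held 874 and 854 in iSPCH at 0 h, 8539.6 and 9653 at 6 h, and 9851 and 9294 at 8 h. WT held 781 at 0 h, 7327 and 6354 at 6 h, and 11948 and 9475 at 8 h. The treated libraries were all far above the untreated ones. GDH2 (AT5G07440), for the α subunit, held 3468 and 3661 in iSPCH at 0 h, 34730.5 and 39529 at 6 h, and 39614 and 37485 at 8 h. Its WT values were 3370.4 at 0 h, 34302 and 29254 at 6 h as the only pair within 2-fold, and 44053 and 34611 at 8 h. At 8 h GDH1 rose by 3.47 ± 0.11 in iSPCH and 3.77 ± 0.13 in WT, and GDH2 by 3.43 ± 0.12 and 3.53 ± 0.14. GDH3 (AT3G03910), the third isogene, was rare, with 22.9 and 21.4 in iSPCH at 0 h, 69.3 and 75.6 at 6 h, and 82.8 and 75.0 at 8 h. In WT it held 31.6 at 0 h, 59.7 and 56.3 at 6 h, and 89.0 and 71.4 at 8 h. It rose as well, by 1.79 ± 0.20 in iSPCH and 1.31 ± 0.25 in WT at 8 h.

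**Figure D2:**
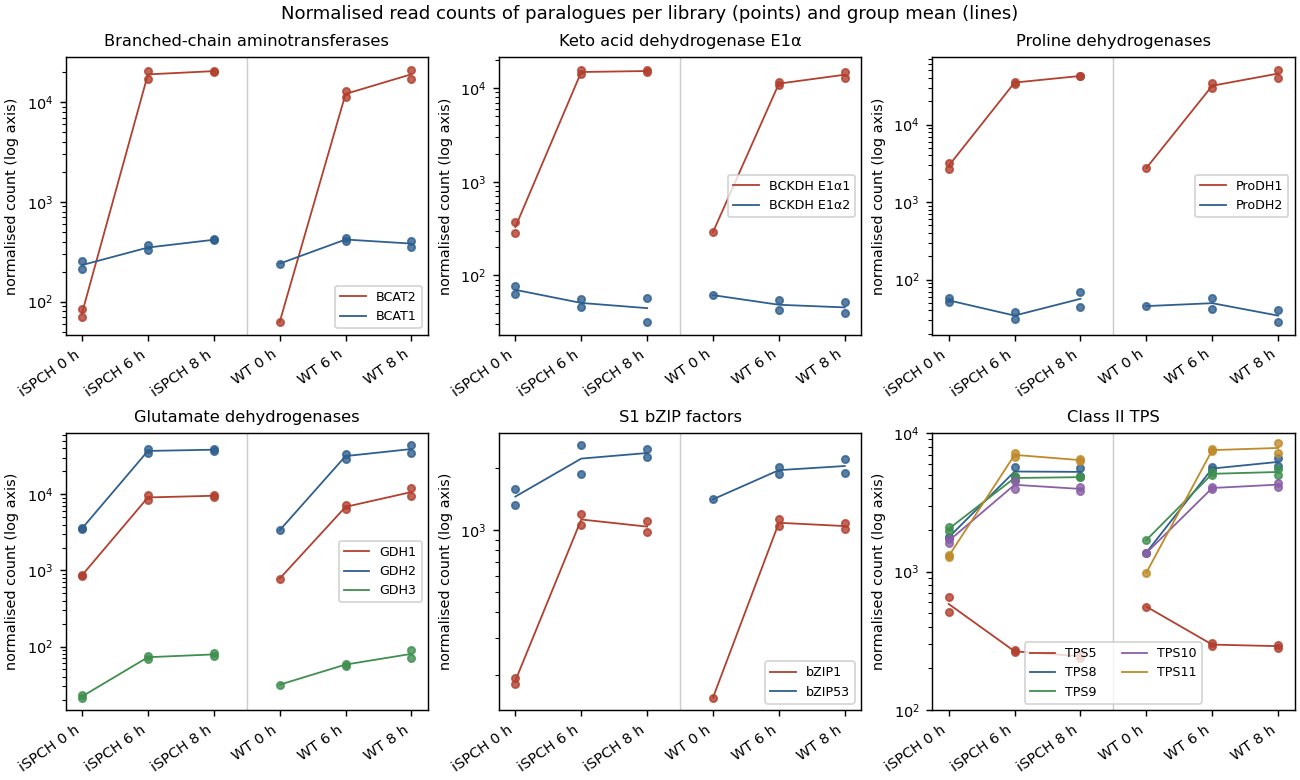
Normalised read counts per library (points, log axis) and the authors' group means (lines) for 6 sets of related members, with iSPCH at 0 h, 6 h and 8 h left of WT at the same hours. BCAT2, BCKDH E1α1, ProDH1, GDH1, GDH2, bZIP1 and TPS8 to TPS11 climb steeply after 0 h, ProDH2 and BCKDH E1α2 stay under 80 counts, and TPS5 falls.

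THA1 (AT1G08630; chromosome 1, 2743761 to 2747967, minus strand), a threonine aldolase that splits threonine into glycine and acetaldehyde, ranked 1 of the 19674 tested genes by its change at 8 h in both lines. It held 45.8 and 135 in iSPCH at 0 h, 18350.1 and 20502 at 6 h, and 23042 and 22291 at 8 h. WT held 50.1 at 0 h, 13184 and 10626 at 6 h, and 20262 and 14305 at 8 h. Treated and untreated libraries were far apart, and the untreated iSPCH libraries themselves differed, with A minus B at -1.54 on the log2 scale. The change at 8 h was 8.15 ± 0.51 in iSPCH (284-fold, adjusted p = 3.51e-05) and 8.38 ± 0.62 in WT (333-fold, adjusted p = 0.000105). The iSPCH value ranged from 7.38 to 8.92 over the alternatives, against 7.92 to 8.22 for BCAT2, and was lowest without iSPCH 0 h A, below every value of BCAT2. MGL (AT1G64660), methionine gamma-lyase, rose by 2.99 ± 0.15 in iSPCH and 2.77 ± 0.19 in WT at 8 h. HGO (AT5G54080), homogentisate dioxygenase of tyrosine breakdown, rose by 3.75 ± 0.09 and 4.15 ± 0.11. TAT7 (AT5G53970), a tyrosine aminotransferase that opens that path, rose by 0.82 ± 0.09 and 1.08 ± 0.11.

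The starvation markers held the most abundant transcripts of the set. SEN1 (AT4G35770), also named DIN1, a dark-inducible marker of senescence, held 173 and 464 in iSPCH at 0 h, and 65076 and 71066 at 6 h and 86308 and 87123 at 8 h as the only pairs within 2-fold. WT held 176 at 0 h, a group mean of 63957 at 6 h, and 94399.8 and 81195 at 8 h as the only such pair. No untreated library came near a treated one, and the change was 8.25 in iSPCH (305-fold) and 8.95 in WT (496-fold) at 8 h, with adjusted p of at most 2.18e-11 and 1.78e-10 over the combinations. ASN1 (AT3G47340), also named DIN6, makes asparagine, the nitrogen carrier of starved cells. It held 756 and 1159.8 in iSPCH at 0 h, and 90087 and 99509.6 at 6 h and 92966 and 94163 at 8 h as the only pairs within 2-fold. In WT it held 666 at 0 h, with group means of 80613 at 6 h and 103959 at 8 h. Every treated mean stood far above the untreated libraries. ASN1 rose by 6.64 in iSPCH (99.8-fold) and by 7.20 to 7.28 in WT (147- to 156-fold) at 8 h. STP1 (AT1G11260), a plasma membrane hexose importer, held 1549 and 2172 in iSPCH at 0 h, 34523 and 31214 at 6 h, and 40778 and 35915 at 8 h. In WT STP1 held 1829 at 0 h, 37979 and 33204 at 6 h as the only pair within 2-fold, and 40261 and 35537 at 8 h. The treated libraries were far above the untreated ones, with 4.38 ± 0.13 in iSPCH and 4.37 ± 0.16 in WT at 8 h.

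The other markers rose in iSPCH at both hours. DIN10 (AT5G20250), of the raffinose synthase family, rose by 3.42 in iSPCH and by 3.57 to 3.64 in WT at 8 h. DRM2 (AT2G33830), a dormancy-associated gene, rose by 4.04 ± 0.18 in iSPCH and 4.02 ± 0.22 in WT at 8 h. BT2 (AT3G48360), a BTB-TAZ protein gene repressed by sugar, rose by 2.18 ± 0.10 and 2.30 ± 0.12. ATG8E (AT2G45170), for a protein of the autophagosome membrane, rose by 1.88 ± 0.13 in iSPCH and 1.97 ± 0.16 in WT at 6 h. DIN2 (AT3G60140), a β-glucosidase, held 46.7 and 10.7 in iSPCH at 0 h, 366 and 465 at 6 h, and 959.9 and 853 at 8 h. WT held 42.4 at 0 h, 199 and 177 at 6 h, and 735 and 552 at 8 h. Its treated libraries exceeded every untreated one, with 5.26 ± 0.64 in iSPCH and 3.88 ± 0.79 in WT at 8 h. At 6 h in WT the change of 2.12 ± 0.79 missed the threshold in limma (adjusted p = 0.0664) and passed it in edgeR (adjusted p = 0.00847), in DESeq2 (adjusted p = 0.00492) and once iSPCH 0 h A or B was left out (1.25e-06 and 1.14e-06). Those libraries differed for DIN2, with A minus B at 2.03 on the log2 scale.

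Regulators among the members were called higher in all 4 comparisons, 3 of 3 each time, with bZIP53 near the threshold in WT. bZIP1 (AT5G49450) held 180.3 and 193 in iSPCH at 0 h, 1055 and 1196 at 6 h, and 1104 and 975 at 8 h. WT held 155 at 0 h, 1127 and 1043 at 6 h, and 1015 and 1077 at 8 h. The treated libraries were clear of the untreated ones, with a rise of 2.47 ± 0.10 in iSPCH and 2.75 ± 0.12 in WT at 8 h. bZIP53 (AT3G62420), of the same S1 group, held 1586 and 1320.2 in iSPCH at 0 h, 1863 and 2572 at 6 h, and 2254 and 2466 at 8 h. In WT it held 1409 at 0 h, 2029 and 1872 at 6 h, and 2200.5 and 1884 at 8 h. Its rise was small, 0.70 ± 0.14 in iSPCH and 0.53 ± 0.18 in WT at 8 h (adjusted p = 0.00102 and 0.0216), and the WT call was lost without WT 8 h A (adjusted p = 0.112). At 6 h the WT value of 0.47 ± 0.18 (adjusted p = 0.0405) lost its call in 3 of 20 alternatives. They left out WT 6 h A (0.139), its pair partner B (0.0620) and library B of iSPCH at 8 h (0.0503). On the scale per kilobase of exon bZIP53 was the more abundant of these factors in all 6 groups, with means of 1866 against 1146 for bZIP1 in iSPCH at 8 h and 1614 against 1153 in WT. AKINβ1 (AT5G21170), a regulatory subunit of SnRK1, rose by 3.12 ± 0.10 in iSPCH and 3.53 ± 0.12 in WT at 8 h.

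Letters that S1 bZIP factors are known to bind, and one known from sugar starvation in rice, were looked for in the 250 bases before the annotated start of each gene. They are ACTCAT, which reads ATGAGT on the other strand and is known from ProDH1, the G-box CACGTG, known from ASN1, and TATCCA, which reads TGGATA on the other strand and is known from rice amylase genes. Matches on both strands were counted. ACTCAT was in 6 of the 46 windows and in 12.3% of 27443 protein-coding genes, CACGTG in 3 and in 6.49%, and TATCCA in 14 and in 13.6%. The 14 include ASN1, STP1, AKINβ1, bZIP1 and TPS11. The evening element AAAATATCT, a clock-linked motif, was in 0 of 46 and in 2.36% of all. The windows of 4 members are shown, because ProDH1 and ASN1 are genes known for such motifs and THA1 and BCAT2 rose most among the tested members. They come from the TAIR10.1 genome of RefSeq and run 5′ to 3′ toward the gene, with motif matches in capitals. The regions are those of ProDH1 (chr3:12451557-12451806, minus strand), THA1 (chr1:2747968-2748217, minus strand), ASN1 (chr3:17441432-17441681, minus strand) and BCAT2 (chr1:3287837-3288086, plus strand).
ProDH1: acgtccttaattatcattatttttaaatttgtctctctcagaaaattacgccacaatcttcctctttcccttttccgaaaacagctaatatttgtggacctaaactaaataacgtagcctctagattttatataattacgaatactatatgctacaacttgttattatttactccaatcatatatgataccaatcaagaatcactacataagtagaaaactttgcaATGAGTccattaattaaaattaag
THA1: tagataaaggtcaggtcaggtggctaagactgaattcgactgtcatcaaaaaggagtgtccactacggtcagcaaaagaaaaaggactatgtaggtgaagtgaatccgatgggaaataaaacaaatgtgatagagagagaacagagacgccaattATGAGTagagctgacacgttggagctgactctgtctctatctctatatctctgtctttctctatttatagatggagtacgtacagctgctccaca
ASN1: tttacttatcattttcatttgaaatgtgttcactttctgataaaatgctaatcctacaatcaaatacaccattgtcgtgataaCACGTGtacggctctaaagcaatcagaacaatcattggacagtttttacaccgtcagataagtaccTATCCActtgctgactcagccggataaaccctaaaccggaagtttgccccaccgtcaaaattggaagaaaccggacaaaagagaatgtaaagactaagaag
BCAT2: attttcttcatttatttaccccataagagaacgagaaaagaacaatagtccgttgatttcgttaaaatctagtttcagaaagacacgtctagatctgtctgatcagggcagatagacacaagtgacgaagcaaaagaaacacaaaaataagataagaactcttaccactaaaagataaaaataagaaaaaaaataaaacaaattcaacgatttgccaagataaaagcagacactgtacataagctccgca
ProDH1 and THA1 each hold ATGAGT, which ends 18 and 89 bases before the start. In ASN1 CACGTG ends 161 and TATCCA 95 bases before it. The window of BCAT2 holds none of these letters. A match is a description of the sequence only.

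Class II trehalose phosphate synthase (TPS) genes encode relatives of the enzyme that makes trehalose phosphate, a signal of sugar status, and 4 of the 5 members rose while 1 fell. TPS11 (AT2G18700) held 1322 and 1269 in iSPCH at 0 h, 6706 and 7234 at 6 h, and 6456 and 6312 at 8 h. WT held 984 at 0 h, 7634 and 7450.2 at 6 h, and 8433 and 7207 at 8 h. The untreated iSPCH libraries were above the untreated WT library, and at 8 h both iSPCH libraries were below both WT libraries. TPS8 (AT1G70290) held 1787 and 1749.9 in iSPCH at 0 h, 4860.3 and 5709 at 6 h, and 4925 and 5582 at 8 h. Its WT values were 1374 at 0 h, 5658 and 5448 at 6 h, and 6639 and 5764 at 8 h. Here too the iSPCH libraries were above WT at 0 h and below both WT libraries at 8 h. Neither line difference of TPS8 was past the threshold in limma, at 0 h (0.36 ± 0.12) or at 8 h (-0.24 ± 0.10, adjusted p = 0.152). TPS9 (AT1G23870) held 1964 and 2111 in iSPCH at 0 h, 4566 and 4924 at 6 h, and 4799 and 4828 at 8 h, and in WT 1692, then 5214 and 4961, then 5503 and 4984. TPS10 (AT1G60140) held 1727 and 1612 in iSPCH at 0 h, 3949.6 and 4529 at 6 h, and 3836 and 4076 at 8 h, and in WT 1365, then 4072 and 3963, then 4389.6 and 4113. Treated libraries of all 4 genes were above the untreated ones, and at 8 h the changes were 1.24 to 2.30 in iSPCH and 1.63 to 2.99 in WT. TPS5 (AT4G17770) went the other way, with 655 and 513 in iSPCH at 0 h, 270.2 and 262 at 6 h, and 238 and 251 at 8 h. WT held 559 at 0 h, 289 and 306 at 6 h, and 298 and 282 at 8 h. It fell by 1.24 ± 0.12 in iSPCH (adjusted p = 1.70e-07) and by 0.95 ± 0.14 in WT (adjusted p = 3.67e-05) at 8 h.

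The rise from 0 h to 8 h was smaller in iSPCH than in WT for TPS11 and TPS8. The difference between the lines' changes was -0.69 ± 0.14 for TPS11 (adjusted p = 0.0127) and -0.60 ± 0.16 for TPS8 (adjusted p = 0.0491), and these 2 lower calls, with 0 higher, were the only ones among the 40 members in limma, beside 1.48% lower and 1.78% higher of all genes. TPS9 and TPS10 had -0.39 ± 0.13 and -0.39 ± 0.14 (adjusted p = 0.130 and 0.142), and TPS5 -0.30 ± 0.18 (adjusted p = 0.440). The difference rests on the single untreated WT library, and the call of TPS8 was lost in 12 of 20 alternatives, with adjusted p from 0.0199 to 0.166. The call of TPS11 was lost in 1, without iSPCH 0 h A (adjusted p = 0.0533). For the change from 0 h to 6 h, 0 of 40 members were called by limma, 0 by edgeR and 0 by DESeq2. At FDR 0.05 in limma the shares of all tested genes were 0.234% higher and 0.483% lower. At an unadjusted p under 0.05 there were 3 members higher and 3 lower, and no share of all genes was taken at that looser threshold.

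Before treatment no member was called between the lines. In the comparison of iSPCH with WT at 0 h, 0 of 40 members were called by limma, edgeR or DESeq2, beside 0.0457% higher and 0.0457% lower of all genes. At an unadjusted p under 0.05 there were 7, all higher in iSPCH, but no share of all genes was taken at that threshold. In all 32 of the 40 were on the higher side in iSPCH, and the median difference was 0.16, against -0.01 over all tested genes.

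After 6 h the members called between the lines were all higher in iSPCH. They were BCAT2, LKR/SDH, GDH1 and ETFβ, 4 of 40, beside 1.15% of all genes called higher. None of the 40 was called lower, beside 3.55% of all genes. In iSPCH BCAT2 reached 17308 and 20774, against 13063 and 11172 in WT, a difference of 0.65 ± 0.13 (1.57-fold, adjusted p = 0.0127). LKR/SDH had 8514 and 10924 against 6631 and 5868 in WT, a difference of 0.63 ± 0.14 (adjusted p = 0.0256). For these genes and for GDH1 and ETFβ, every iSPCH library was above every WT library. GDH1 differed by 0.41 ± 0.11 (adjusted p = 0.0452) and ETFβ by 0.37 ± 0.10 (adjusted p = 0.0428). BCKDH E1α1 and BCDH BETA1, with 0.41 ± 0.11 and 0.37 ± 0.10, missed the threshold in limma (adjusted p = 0.0593 and 0.0592) and passed it in edgeR (adjusted p = 0.0429 and 0.0450), the first also in DESeq2 (adjusted p = 0.00563). THA1 had 0.71 ± 0.51 and DIN2 1.13 ± 0.64 (adjusted p = 0.562 and 0.448). Both were called once either iSPCH 0 h library was left out, THA1 with adjusted p of 0.0297 and 0.0297 and DIN2 with 0.00202 and 0.00184. In all 30 of the 40 were on the higher side in iSPCH, and the median difference was 0.17, against 0.00 over all genes.

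These 6 h calls depended on single libraries, and those of GDH1 and ETFβ also on other settings. Of 21 alternatives, BCAT2 lost its call in 2, LKR/SDH in 3, and GDH1 and ETFβ in 10 each. With only the compared groups, limma gave an adjusted p of 0.0793 for GDH1 and 0.0640 for ETFβ. Without WT 6 h B or iSPCH 6 h B, 0 of 40 were called in limma, without WT 6 h A 1 was, and without iSPCH 6 h A 7 were. The values of BCAT2 ranged from 0.52 to 0.78 over the alternatives and those of LKR/SDH from 0.45 to 0.81. Scaling by library size alone put the median of all genes at 0.11 at 6 h, gave 7 members higher and 0 lower, and turned the split over all genes, 227 higher and 698 lower, to 768 and 429.

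The members also moved together between libraries of the same group. In WT at 6 h, 37 of the 40 tested members were higher in library A than in B, with a median log2 ratio of 0.12, and in WT at 8 h again 37 were, with a median of 0.22. Over all tested genes A was the higher library for 51.8% at 6 h and 52.9% at 8 h, with medians of 0.01 at both. In iSPCH at 6 h, 33 of the 40 were higher in B, the shallowest library of the series, with a median of -0.18, against 0.01 over all genes. In iSPCH at 8 h 18 were higher in A and 22 in B. The summed normalised counts of the 40 were 208791 and 232924 in iSPCH at 6 h, against 202573 and 179958 in WT. At 8 h they were 238367 and 238864 in iSPCH against 257504 and 213476 in WT. The spread between libraries of WT thus spanned the iSPCH sums at 8 h, and at 6 h both iSPCH sums lay above both WT sums.

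**Figure D3:**
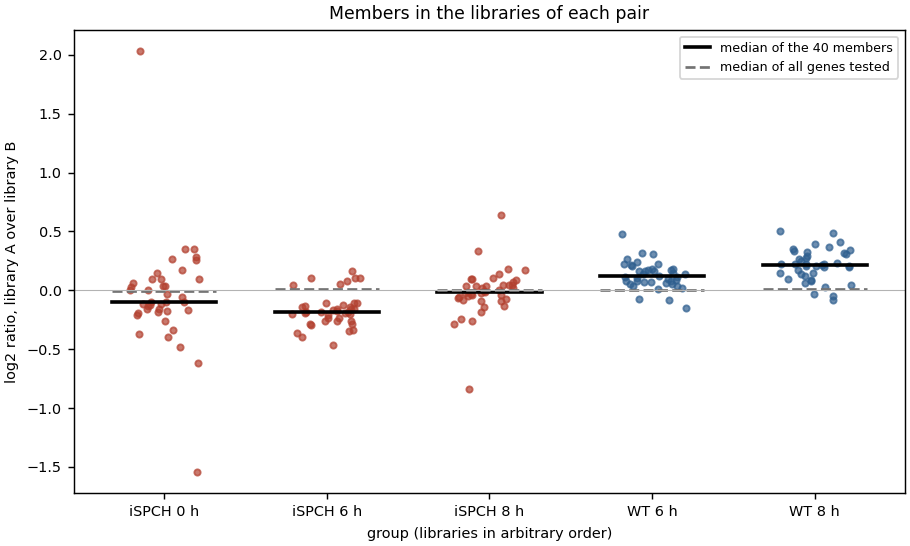
Log2 ratio of library A over library B (y axis) of the 40 tested members (points) in each group with a pair of libraries, iSPCH in red left of WT in blue. Solid lines are member medians and dashed lines medians of all genes tested. The members lie mostly above 0 in WT at 6 h and 8 h, mostly below 0 in iSPCH at 6 h, and around 0 in iSPCH at 8 h.

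After 8 h 2 of the 40 members were called between the lines, both lower in iSPCH. That share is near the 5.96% of all tested genes called lower. HML had 995 and 963 in iSPCH against 1240.3 and 1282 in WT, and differed by -0.36 ± 0.07 (adjusted p = 0.00511), a call kept in all 21 alternatives. TPS11 had 6456 and 6312 in iSPCH against 8433 and 7207 in WT, and differed by -0.29 ± 0.09 (adjusted p = 0.0465). The call of TPS11 was lost in 12 of 21 alternatives, among them scaling by library size, where it had -0.17 (adjusted p = 0.226). Of all tested genes 5.96% were called lower and 4.75% higher, and 0 of the 40 members were called higher by limma, edgeR or DESeq2. At an unadjusted p under 0.05 there were 3 members higher and 6 lower, with no share of all genes taken at that threshold. Scaling by library size gave 2 members higher, ETFβ and AT4G31810, and 1 lower, and turned the split over all genes, 934 higher and 1173 lower, to 1758 and 641. BCAT2 had 0.11 ± 0.13 and GDH1 -0.15 ± 0.11 at 8 h (adjusted p = 0.674 and 0.452), and 20 of the 40 members were on the higher side, with a median of 0.00 against -0.03 over all genes. None of the 6 abundant members was called between the lines at any hour, and ASN1 had 0.24 to 0.27 at 6 h and -0.15 to -0.07 at 8 h.

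**Figure D4:**
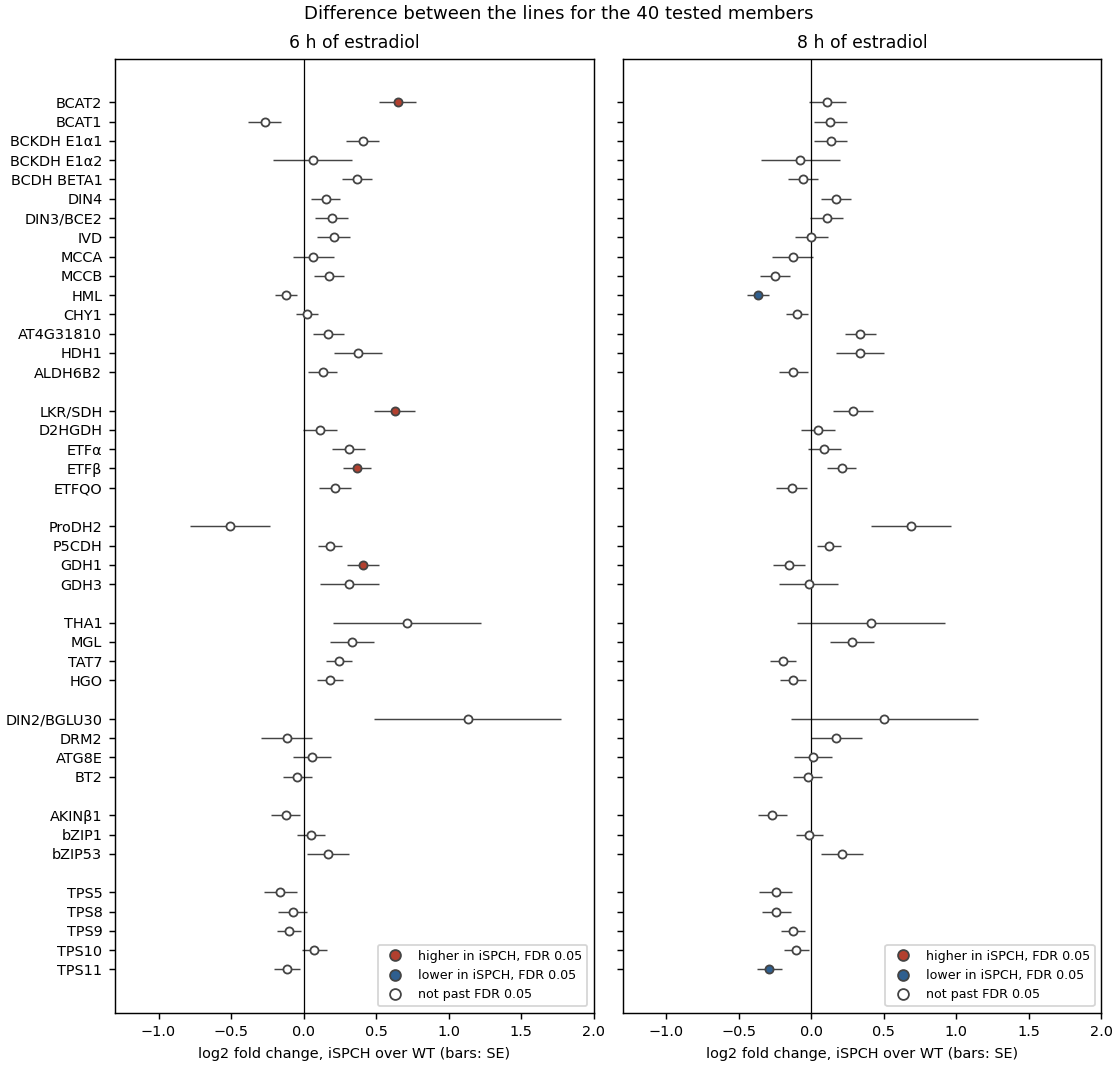
Log2 fold change of iSPCH over WT (x axis) for the 40 tested members (rows, grouped by role) after 6 h (left) and 8 h (right) of estradiol, with bars of SE. Filled red points (BCAT2, LKR/SDH, ETFβ and GDH1 at 6 h) are higher and filled blue points (HML and TPS11 at 8 h) lower in iSPCH at FDR 0.05. Open points, the large majority, are not past that threshold.

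Between 6 h and 8 h few members were called. In iSPCH, 2 of 40 were called lower and 0 higher at 8 h, beside 3.55% and 3.96% of all genes. HML had 995 and 963 at 8 h against 1222 and 1176 at 6 h (-0.29 ± 0.07, adjusted p = 0.0272), and TAT7 had 1664 and 1544 against 1911 and 2175 (-0.35 ± 0.09, adjusted p = 0.0269). For both genes the 8 h libraries of iSPCH were below its 6 h libraries. HML lost its call in 7 of 21 alternatives and TAT7 in 4, and edgeR called 2 members higher as well, DIN2 and DRM2. In WT, 1 of 40 was called higher and 0 lower at 8 h, beside 0.208% and 0.203% of all genes. At an unadjusted p under 0.05, where no share of all genes was taken, there were 13 higher and 0 lower in WT. There 33 of the 40 were on the higher side at 8 h, with a median of 0.19 against 0.01 over all genes, and DIN2 had 1.76 ± 0.64 (adjusted p = 0.442). The member called was GDH1, with 11948 and 9475 at 8 h against 7327 and 6354 at 6 h (0.64 ± 0.11, adjusted p = 0.0221). BCAT2 with 0.65 ± 0.13 and LKR/SDH with 0.68 ± 0.14 missed the threshold in limma (adjusted p = 0.0558 and 0.0675) and passed it in edgeR (adjusted p = 0.0221 and 0.0470). Leaving out WT 6 h A ended the GDH1 call (adjusted p = 0.0521), as did leaving out WT 6 h B (0.445) and WT 8 h A (0.367). When the lines' changes from 6 h to 8 h were compared, 0 of 40 members were called by limma and 0 by edgeR. In limma at FDR 0.05, 0.889% of all tested genes were higher and 0.229% lower. DESeq2 called 1 member, GDH1 with -0.57 (adjusted p = 0.0374). At an unadjusted p under 0.05 there were 2 members higher and 8 lower, and no share of all genes was taken at that threshold. In limma GDH1 had -0.57 ± 0.15 and BCAT2 -0.54 ± 0.18 (adjusted p = 0.123 and 0.292), so the 6 h and 8 h line differences of these genes were not shown to differ.

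Other genes of these pathways that are no members were counted at 8 h from lists of known components. These counts stand beside 34.8% higher and 33.6% lower of all tested genes in iSPCH, and 31.2% and 29.9% in WT. Of 20 tested genes listed for amino acid breakdown, 11 rose and 4 fell in iSPCH at 8 h, and 12 rose and 4 fell in WT. The list is broad, and its genes need not act in breakdown alone. It holds BCAT3 (AT3G49680) and mtLPD1 (AT1G48030), whose means were lower at 8 h than at 0 h in both lines. AGT3 (AT2G38400), an aminotransferase, rose by 4.22 ± 0.10 in iSPCH and 4.24 ± 0.12 in WT, and was also higher in iSPCH than in WT at 6 h, by 0.53 ± 0.10 (adjusted p = 0.00484). PDS1 (AT1G06570), the dioxygenase before HGO in tyrosine breakdown, rose by 3.14 ± 0.10 and 3.63 ± 0.13. THA2 (AT3G04520), the paralogue of THA1, had 0.01 ± 0.11 and 0.31 ± 0.14 (adjusted p = 0.924 and 0.0697). Autophagy genes rose widely, 15 of 16 in iSPCH and 14 of 16 in WT, with 0 lower, and medians of 1.08 and 1.04. All 5 of a further list, DIN9, DIN11, DRM1, MIOX2 and MIOX4, rose in both lines. Among these DIN9 (AT1G67070), a phosphomannose isomerase, was also higher in iSPCH than in WT at 8 h, by 0.78 ± 0.13 (adjusted p = 0.00109).

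In the opposite direction, 6 of 6 genes for other amide-forming enzymes fell in both lines at 8 h. ASN2 (AT5G65010), an asparagine synthetase like ASN1, fell by 1.42 ± 0.09 in iSPCH and by 1.37 ± 0.11 in WT, and ASN3 (AT5G10240) by 1.07 ± 0.13 and by 1.40 ± 0.16. Of the sugar-induced genes GPT2, APL3, BAM5 and CHS, 2 had enough reads and both fell in both lines. CHS (AT5G13930), chalcone synthase of flavonoid synthesis, fell by 2.62 ± 0.24 in iSPCH and by 2.44 ± 0.29 in WT. Of 6 SnRK1 subunit genes 3 rose and 1 fell in each line, led by KING1 (AT3G48530), a gamma-type subunit, with 2.11 ± 0.08 and 2.29 ± 0.10. Of 7 other S1 and C group bZIP genes 3 rose and 3 fell in iSPCH, and 3 rose and 1 fell in WT, shares in iSPCH near those of all genes. Of 4 other BT family genes 3 rose and 1 fell in each line.

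Of 5 other STP sugar transporters 5 rose in iSPCH and 3 in WT, with 0 lower. STP14 (AT1G77210) rose by 2.90 ± 0.12 in iSPCH and 3.82 ± 0.14 in WT, and was lower in iSPCH than in WT at 8 h (-0.74 ± 0.12, adjusted p = 0.000891). Of the other 4, 2 were higher in iSPCH than in WT at 8 h, among them MSS1 (AT5G26340) with 0.76 ± 0.13 (adjusted p = 0.00147). In that comparison 4.75% of all tested genes were called higher and 5.96% lower. Of 4 senescence genes with enough reads 3 rose in each line, with NAP (AT1G69490), a NAC regulator of leaf senescence, at 4.28 ± 0.18 and 4.71 ± 0.22. Of 3 proline synthesis genes 2 rose in each line, and of the 2 class II TPS genes outside the set TPS6 (AT1G68020) rose in both. TPS7 (AT1G06410) fell by 0.24 ± 0.10 in iSPCH (adjusted p = 0.0398) and had 0.15 ± 0.12 in WT (adjusted p = 0.289). Of 7 core hypoxia genes 4 rose and 1 fell in iSPCH, and 3 rose and 1 fell in WT, with medians of 0.62 and -0.43. ADH1 (AT1G77120), alcohol dehydrogenase, rose by 1.59 ± 0.21 in iSPCH and 1.40 ± 0.25 in WT. Of the clock list 5 of 8 rose and 2 fell in each line, and 3 were lower in iSPCH than in WT at 8 h, beside 5.96% of all genes.

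Marker genes of root tissue fell over the same hours, 4 of 4 in iSPCH and 3 of 4 in WT at 8 h. Of all tested genes 33.6% fell in iSPCH and 29.9% in WT at that hour. All 4 root markers were lower in iSPCH than in WT at 8 h, beside 5.96% of all genes. The median of these 4 differences was -2.14, and the markers differed widely. EXPA7 (AT1G12560) had group means of 6.12 in iSPCH and 84.7 in WT at 8 h, and CASP1 (AT2G36100) had 387 and 614. The median therefore does not stand for root tissue as a whole, and the sums below do not stand for each marker. The summed normalised counts of the 4 were 1481 and 1581 in iSPCH at 0 h, 1180.2 and 851 at 6 h, and 673 and 586 at 8 h. In WT they were 1633 at 0 h, 1327 and 1281 at 6 h, and 1099.8 and 1057 at 8 h. Of 2 epidermis markers both fell in each line, and 1 was lower in iSPCH than in WT at 8 h. Of 3 stomatal lineage markers, SPCH among them, 3 rose in iSPCH and 2 fell in WT at 8 h, with summed normalised counts of 45869.8 and 43699 in iSPCH against 320.3 and 427 in WT. The 3 mesophyll markers were too abundant to be split between libraries. In whole seedlings, fewer cells of a type and less RNA per cell cannot be told apart, and the part of tissue composition in the members' changes was not tested.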

How the data were processed

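The deposited values are a signal per locus that the authors' column names call a mean for each group. TAIR10, DESeq, TopHat and CASAVA 1.8 appear in the submitters' processing notes, without roles. How reads were assigned to genes, and by strand or not, is not stated there. The values are means of whole reads divided by size factors, so the reads of each library were recovered by solving for whole numbers: 33488 of 33602 loci had 1 solution, and the other 114 held 31.6% of the reads. Recovered libraries carry no replicate number of the labels, so A and B are names only. A count test had been planned on deposited counts. The test used instead was limma 3.58.1 (R 4.3.3) with trend and robust variance on log2 of the normalised counts plus 1, over all 11 libraries with 1 term per group, for genes that reached 1 CPM in 2 or more libraries. It gave 12 comparisons, with Benjamini-Hochberg adjustment over 19674 genes in each. Untreated WT, with 1 library, takes its variance from the other groups. Abundant members with several solutions were fitted under each pair within 2-fold. The limma fit was tested on simulated data for the comparison of iSPCH with WT at 8 h only. The alternatives were edgeR 4.0.16, DESeq2 1.42.0, other scalings (TMM, library size), added counts of 0.1 and 5, other filters, no robust variance, only the compared groups, and leaving out each library. The text names members past the threshold between lines or hours, the 8 members with the largest mean change from 0 h, and the sets of paralogues, and adds other members by role. The members and lists were chosen with earlier results of these data known.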

Additional observations from a re-analysis of the deposited data

Results flagged for a closer look

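For 2 class II trehalose phosphate synthase genes the change from 0 h to 8 h differed between the lines in limma. TPS11 had a difference of -0.69 and TPS8 of -0.60, iSPCH minus WT, in log2 units. Both rose less in iSPCH, with 2.30 against 2.99 in WT for TPS11 and 1.57 against 2.17 in WT for TPS8. The untreated WT value comes from 1 library, with 984 normalised counts of TPS11 and 1374 of TPS8. No cause was tested.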

How the results depend on the processing

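The comparisons with 0 h kept their counts of members within 1.5 times in every alternative, with 37 to 39 called in iSPCH at 6 h, 36 to 37 in iSPCH at 8 h, 36 to 38 in WT at 6 h and 37 to 38 in WT at 8 h when 1 library was left out. No called value changed sign. Between the lines at 6 h, where 4 members were called, library size scaling gave 7 and no filter on low reads gave 2, and leaving out 1 library gave 0 to 7. At 8 h, with 2 called, no filter and no robust variance each gave 1, and leaving out 1 library gave 1 to 3. At 0 h, with 0 called, it gave 0 to 2, the 2 without iSPCH 0 h A being THA1 (1.41) and DIN2 (-1.89). Between 8 h and 6 h in iSPCH, with 2 called, edgeR gave 4, DESeq2 1 and leaving out 1 library 0 to 4. In WT, with 1 called, an added count of 5 and library size scaling gave 2, edgeR and DESeq2 3, only the compared groups 4, and leaving out 1 library 0 to 3. For the difference of the changes from 0 h to 8 h, with 2 called, an added count of 0.1, TMM scaling, library size scaling, no filter, a mean CPM of at least 5 and no robust variance each gave 1, and leaving out 1 library gave 1 to 3. Without iSPCH 0 h A the 1 was DIN2, higher by 2.40. For the changes from 0 h to 6 h leaving out 1 library gave 0 to 1, and for those from 6 h to 8 h it gave 0 to 1 and DESeq2 gave 1. The causes were not tested. No paired analysis was possible because the recovered library values carry no replicate number of the labels. Intervals rest on pairs of libraries, and WT at 0 h on 1.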
